A study of Mus musculus with 94 samples.

Results

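The 4 libraries described here hold the poly(A) RNA of differentiating mouse embryonic stem cells 8 h after the cohesin subunit RAD21 was targeted for degradation. They were taken by their table and labels, as clones C4 and G9 with dTAG-13 set against the same clones with DMSO, and make up 4 of the 94 samples of the series. The series studied the loss of RAD21 or WAPL by ChIP-seq, Hi-C, RNA-seq, PRO-seq and CHART, with Polycomb repression and X inactivation named in its title.

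The dTAG-13 group was 2 libraries of RAD21-FKBP(degron) cells treated with 500 nM dTAG-13 for 8 h and harvested at day 10 of differentiation. The DMSO group was 2 libraries of the same clones given the same volume of DMSO for 8 h. Every library carried the RAD21-FKBP(degron) genotype on a CAST/Ei x 129/Sv/Jae background in a Tsix-stop stem cell line, so no untagged cells enter the comparison. Stem cells were kept on irradiated mouse embryonic fibroblast feeders and then grown as embryoid bodies, which hold several cell types. C4 and G9 are each 1 clone with 1 library per treatment, and nothing in the labels says that the 2 treatments of a clone came from replicate cultures, so the p-values refer to the scatter of these 4 libraries, which may be technical.

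Cohesin is a ring-shaped complex of SMC1A, SMC3, RAD21 and a STAG subunit that extrudes chromatin into loops and holds sister chromatids together. NIPBL loads it, WAPL releases it, and the DNA-binding protein CTCF halts it at loop anchors. dTAG-13 bridges the FKBP tag to a ubiquitin ligase, so that the tagged protein is degraded while its transcript is not a direct target.

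Library totals were 26474853 (C4) and 13802076 (G9) counts with dTAG-13, against 23576374 (C4) and 33808921 (G9) counts with DMSO. The G9 dTAG-13 library was the shallowest. In CPM, the library-scaled count, 3 counts equal 0.0868 in the deepest library and 0.224 in the shallowest, which covers counting error only. Of the 15363 genes listed, 14470 had enough counts to be tested. In edgeR's quasi-likelihood test with the clone as a term, genes with a Benjamini-Hochberg adjusted p under 0.05 were called, and each fold change is the log2 of dTAG-13 over DMSO with its SE, so that a rise or fall by a number is in log2 units. Pairs of values are given as clone C4, then clone G9.

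After 8 h with dTAG-13, 1422 genes (9.83% of those tested) were higher and 1286 genes (8.89%) were lower than with DMSO. The falls were deeper than the rises. At least 2-fold changes were seen in 51 of the higher and in 177 of the lower genes, and at least 4-fold changes in 0 and 22 genes. The median absolute log2 change was 0.28 among the higher and 0.42 among the lower genes. With library totals in place of TMM scaling the calls were 710 higher and 1303 lower, which moves the higher share of all calls to 35.3% against 52.5% with TMM. DESeq2 with the same terms called 219 genes higher (1.51%) and 253 lower (1.75%), so its counts are given beside those of edgeR for each gene group. The shares of all genes called by each test are the background for every count of list members below. The edgeR fit had 1 residual degree of freedom and took the same spread trend for all genes, and without the clone term it called 0 genes higher and 1 lower.

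The log2 ratios of C4 and G9 had the same sign in 98.7% of the called genes and in 68.3% of all tested genes. The called genes were picked by a fit over both clones, which rarely calls a gene whose clones move apart. Their 98.7% therefore does not measure agreement between the clones. Over all tested genes the log2 ratios of C4 and G9 correlated with Pearson r = 0.562 and Spearman rho = 0.505, a description across genes that are not independent. Each clone was also tested alone, with the spread borrowed from 4 libraries of WAPL-FKBP cells paired by replicate number, an alternative chosen after seeing the data. Among 14254 genes tested in both of these fits, 588 were higher in C4 and 829 in G9, and 347 were higher in both, which is 59% of the C4 genes and 41.9% of the G9 genes. Lower genes numbered 542 in C4 and 788 in G9, with 356 lower in both (65.7% and 45.2%). Opposite calls were made for 11 genes.

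**Figure D1:**
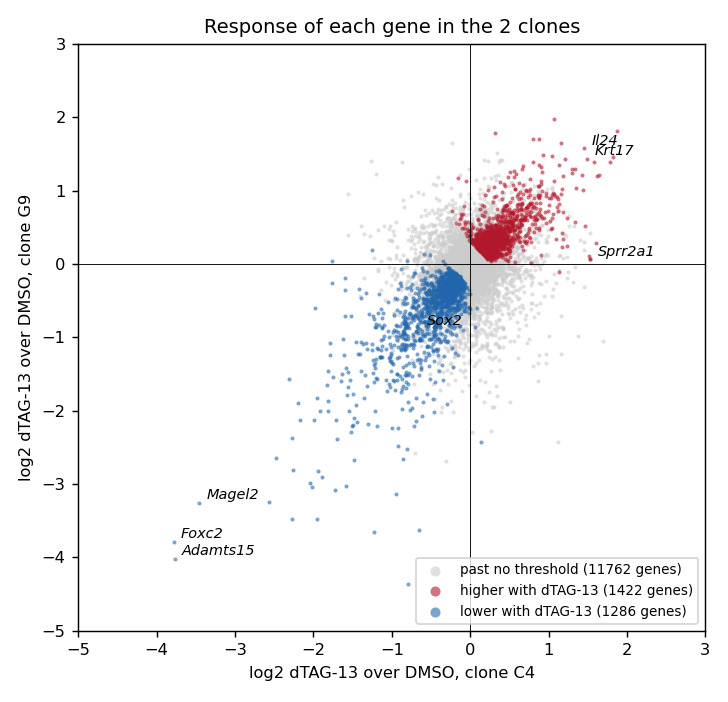
Log2 ratio of dTAG-13 over DMSO in clone C4 (horizontal) and clone G9 (vertical), 1 point per tested gene, coloured by the edgeR call; 1 gene lies outside the axes. Magel2, Adamts15 and Foxc2 sit far down in both clones, whereas Sprr2a1 is high in C4 and near 0 in G9.

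The transcripts of the cohesin machinery changed little, and the degron acts on protein, so the Rad21 transcript does not check the labels. Rad21 stood at 284 and 216 CPM with dTAG-13, against 251 and 201 CPM with DMSO (log2 0.14, SE 0.065, adjusted p = 0.118). Of 18 genes for cohesin, its loaders, releasers and CTCF, 2 rose and 2 fell (1 and 0 by DESeq2). Each share (11.1%) was near that of all genes, 9.83% higher and 8.89% lower. Stag1, which encodes one of the alternative STAG subunits, rose to 269 and 247 CPM with dTAG-13, against 222 and 189 CPM with DMSO (log2 0.33, SE 0.064, adjusted p = 6.73e-06). The loader gene Nipbl rose by 0.18 (adjusted p = 0.030). The acetyltransferase genes Esco1 and Esco2, whose products lock cohesin on sister chromatids, fell by 0.19 (adjusted p = 0.0496) and 0.18 (adjusted p = 0.031). Smc1a (0.082), Smc3 (-0.02), Ctcf (-0.019) and Wapl (-0.058) passed no threshold.

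The genes described first are the 12 largest falls and the 12 largest rises among called genes that moved the same way in C4 and G9 and averaged log2 CPM 2 or more, leaving out predicted and small noncoding genes. Magel2, an imprinted gene in the Prader-Willi domain, encodes a regulator of a ubiquitin ligase. It stood at 6.36 and 6.28 CPM with dTAG-13, against 70.5 and 60.7 CPM with DMSO (log2 -3.39, SE 0.089, adjusted p = 6.36e-301). Both treated libraries lay at about the same low level and far from both controls. The 300 bases around its start are shown because this single-exon gene fell while its neighbours did not fall as far, as described with the gene order. The sequence and those of Sprr1a and Cyp1a1, which rose, are from RefSeq (GRCm38.p6), 250 bases before to 50 after the start, 5′ to 3′ on the gene's strand. Capitals mark 3 motifs, searched on both strands. The AP-1 site was searched as TGANTCA. The TATA box, a signal for polymerase placement near a start, was searched as TATAAA. The core bound by the aryl hydrocarbon receptor was searched as GCGTG.
Magel2 (chr7:62376729-62377028, plus strand): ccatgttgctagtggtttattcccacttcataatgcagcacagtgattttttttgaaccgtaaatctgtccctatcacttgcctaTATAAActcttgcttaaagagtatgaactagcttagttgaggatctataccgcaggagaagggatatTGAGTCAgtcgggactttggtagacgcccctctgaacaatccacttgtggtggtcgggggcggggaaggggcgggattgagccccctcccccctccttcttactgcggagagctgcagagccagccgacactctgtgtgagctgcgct
Sprr1a (chr3:92485832-92486131, minus strand): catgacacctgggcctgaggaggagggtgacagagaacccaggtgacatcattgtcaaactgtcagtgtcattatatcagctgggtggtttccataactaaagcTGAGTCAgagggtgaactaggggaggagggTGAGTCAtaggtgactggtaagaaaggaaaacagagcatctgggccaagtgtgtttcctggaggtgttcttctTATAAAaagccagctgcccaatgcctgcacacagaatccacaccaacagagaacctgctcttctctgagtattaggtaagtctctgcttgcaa
Cyp1a1 (chr9:57697363-57697662, plus strand): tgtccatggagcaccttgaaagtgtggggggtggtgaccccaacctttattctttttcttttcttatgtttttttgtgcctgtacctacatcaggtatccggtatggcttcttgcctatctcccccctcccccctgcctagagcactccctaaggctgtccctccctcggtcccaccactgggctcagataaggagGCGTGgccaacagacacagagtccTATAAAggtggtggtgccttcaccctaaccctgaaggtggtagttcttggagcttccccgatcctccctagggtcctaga
The Magel2 window held 1 AP-1 motif and 1 TATAAA match. That of Sprr1a held 2 AP-1 motifs and 1 TATAAA match, and that of Cyp1a1 held 1 TATAAA match and 1 receptor core. In Magel2 the TATAAA match lies far before the start, unlike the matches in Sprr1a and Cyp1a1, so it is not read as a TATA box. Over all 32851 promoter windows listed, 7.81% held the AP-1 motif, 13.6% TATAAA and 32.4% the receptor core. The AP-1 motif was present in 9.2% of 1076 higher genes with a window, in 4.26% of 915 lower genes and in 5.99% of 10821 tested genes. The receptor core was present in 54.5%, 57.4% and 55.5% of the same 3 sets, and TATAAA in 9.76%, 10.9% and 8.6%. Of the 12 largest rises 9 had a window, and 1 of these held the AP-1 motif. Of the 12 largest falls 7 had a window, and 1 of these held it. These are matches of letters and not sites of binding.

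Adamts15, a secreted metalloprotease of the matrix, stood at 1.17 and 0.823 CPM with dTAG-13, against 17 and 14.6 CPM with DMSO (log2 -3.94, SE 0.19, adjusted p = 4.06e-90). Foxc2, a forkhead transcription factor of mesoderm and lymphatic vessels, had 0.303 and 0.748 CPM with dTAG-13, against 5.2 and 11.3 CPM with DMSO (log2 -3.99, SE 0.27, adjusted p = 6.85e-45). In both genes the 2 treated libraries lay far below the 2 controls. The clone ratios, which a small count added before the log shrinks in low genes, were -3.77 (C4) and -4.02 (G9) for Adamts15. They were -3.78 in each clone for Foxc2. Fits of each clone alone gave -3.852 (C4) and -4.139 (G9) for Adamts15 and -4.075 (C4) and -3.916 (G9) for Foxc2. Igfbp3, a secreted binder of insulin-like growth factors, was the most abundant of the 12 largest falls, at 97.9 and 77.8 CPM with dTAG-13, against 322 and 338 CPM with DMSO (log2 -1.91, SE 0.066, adjusted p = 9.12e-175). Tgfb2, a growth factor ligand, fell to 14 and 13.4 CPM with dTAG-13, against 53.1 and 53.9 CPM with DMSO (log2 -1.96, SE 0.08, adjusted p = 2e-126). Sox9, a regulator of cartilage and neural crest, fell to 6.66 and 7.03 CPM with dTAG-13, against 23.7 and 28.4 CPM with DMSO (log2 -1.91, SE 0.11, adjusted p = 4.42e-62). In these 3 genes the clones differed from each other by far less than the treatments did.

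The other 6 of the 12 largest falls were Cemip (-2.47), which encodes a hyaluronan-degrading protein, Chst1 (-2.36), a sulfotransferase, Cbln1 (-2.23), a synapse organiser, Gjb2 (-2.15), the gap junction protein connexin 26, Fam46a (-2.09), a noncanonical poly(A) polymerase, and Mfap3l (-1.94). Cemip had 1.29 and 0.897 CPM with dTAG-13, against 5.58 and 7.63 CPM with DMSO, and Chst1 had 3.67 and 1.57 CPM with dTAG-13, against 15.1 and 13.5 CPM with DMSO. In Chst1, Cbln1 and Gjb2 the fall was deeper in G9, with log2 ratios of -2.02, -1.73 and -1.59 in C4 and -3.04, -3.08 and -3.03 in G9. All 12 falls were also called by DESeq2. Fitted in each clone alone, their log2 changes ran from -4.07 to -1.62 in C4 and from -4.14 to -2.01 in G9. The 12 were picked by their change in these same libraries, so neither result is independent support.

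**Figure D2:**
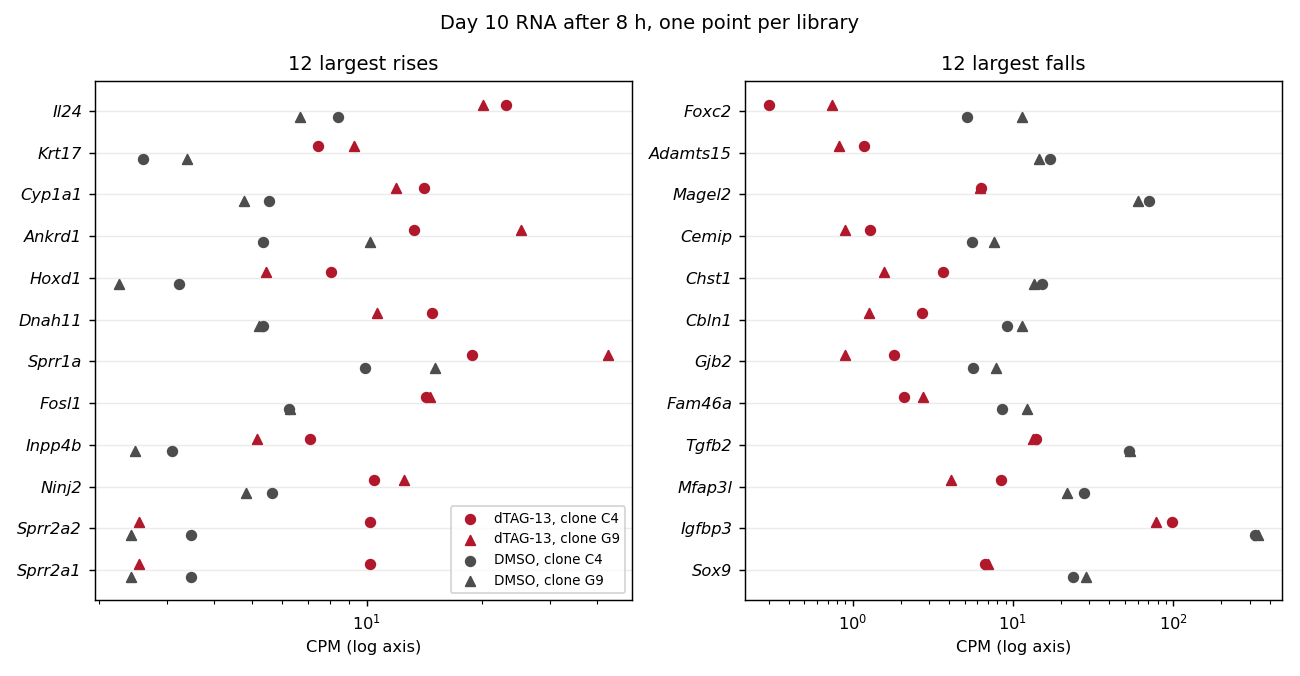
CPM on a log axis of the 12 largest rises (left) and 12 largest falls (right), 1 point per library, with dTAG-13 in red above DMSO in grey, circles for clone C4 and triangles for clone G9. Both dTAG-13 points lie beyond both DMSO points in every gene shown but Sprr2a1 and Sprr2a2, where the G9 points lie close together.

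The largest of the 12 rises was in Il24, a cytokine of the interleukin 10 family. It stood at 23.1 and 20.1 CPM with dTAG-13, against 8.39 and 6.68 CPM with DMSO (log2 1.52, SE 0.11, adjusted p = 2.47e-38). Krt17, a stress-associated epithelial keratin, had 7.46 and 9.27 CPM with dTAG-13, against 2.6 and 3.38 CPM with DMSO (log2 1.48, SE 0.18, adjusted p = 9.48e-15). Cyp1a1, a target of the aryl hydrocarbon receptor, had 14.1 and 11.9 CPM with dTAG-13, against 5.54 and 4.77 CPM with DMSO (log2 1.33, SE 0.14, adjusted p = 3.36e-19). For these 3 genes each treated library lay above both controls. Ankrd1, a target of the YAP coactivator, had 13.3 and 25.2 CPM with dTAG-13, against 5.37 and 10.2 CPM with DMSO (log2 1.31, SE 0.12, adjusted p = 3.92e-26), where the 2 clones differed in level but rose by the same amount (1.29 and 1.30). Fosl1, an AP-1 subunit, had 14.3 and 14.6 CPM with dTAG-13, against 6.25 and 6.3 CPM with DMSO (log2 1.20, SE 0.13, adjusted p = 4.77e-18). Hoxd1, the 3′-most gene of the HoxD cluster, had 8.06 and 5.46 CPM with dTAG-13, against 3.23 and 2.26 CPM with DMSO (log2 1.30, SE 0.19, adjusted p = 5.26e-10).

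Sprr1a, a precursor of the cornified envelope of skin, had 18.9 and 42.5 CPM with dTAG-13, against 9.9 and 15.1 CPM with DMSO (log2 1.25, SE 0.096, adjusted p = 5.73e-36). The related Sprr2a1 and Sprr2a2 carried identical counts in every library, and their 300 promoter bases were identical, so their reads cannot be told apart. They stood at 10.2 and 2.54 CPM with dTAG-13, against 3.48 and 2.43 CPM with DMSO, so the rise was in C4 (1.53) and not in G9 (0.063). The remaining rises were Dnah11 (1.25, SE 0.14), an axonemal dynein, Inpp4b (1.13, SE 0.19), a lipid phosphatase, and Ninj2 (1.12, SE 0.15), a cell surface protein. Dnah11 had 14.8 and 10.6 CPM with dTAG-13, against 5.37 and 5.24 CPM with DMSO, and Ninj2 had 10.4 and 12.5 CPM with dTAG-13, against 5.66 and 4.83 CPM with DMSO, with both treated libraries above both controls in each gene. DESeq2 called 10 of the 12 rises. The 9 that were fitted in each clone alone had log2 changes from 0.88 to 1.52 in C4 and from 1.05 to 1.58 in G9. The 12 rises too were picked by their change in these same libraries, so neither result is independent support.

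Gene order was examined next, because cohesin loops act over neighbouring genes. The 3 tested genes on each side of each of the 24 were taken from the RefSeq order. Around the 12 falls, 10 of 72 neighbours were lower and 4 were higher, with a median log2 of -0.05. Around the 12 rises, leaving out neighbours that belong to the 24 themselves, 12 of 61 were higher and 6 were lower, with a median of 0. Those shares stand beside 9.83% higher and 8.89% lower over all genes. None of the 6 neighbours was called around Cyp1a1, Gjb2, Mfap3l, Sox9 and Inpp4b.

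Next to Adamts15, the gene Adamts8, which encodes a related protease, had 1.25 and 0.673 CPM with dTAG-13, against 6.29 and 5.21 CPM with DMSO (log2 -2.51, SE 0.25, adjusted p = 3.25e-21). Within 2 places of Foxc2, the forkhead gene Foxf1 had 1.7 and 3.21 CPM with dTAG-13, against 4.62 and 8.97 CPM with DMSO (log2 -1.46, SE 0.20, adjusted p = 2.73e-11), while Mthfsd, between them, had a log2 change of 0.099 (adjusted p = 0.325). On one side of Igfbp3, Adcy1 fell by 0.44 and Ramp3, a receptor activity modifier, had 4.62 and 3.44 CPM with dTAG-13, against 12.9 and 13.2 CPM with DMSO (log2 -1.66, SE 0.15, adjusted p = 1.24e-26). Around Magel2 the change was uneven: Ndn, the neighbouring imprinted gene on one side, had 96.5 and 131 CPM with dTAG-13, against 109 and 135 CPM with DMSO (log2 -0.11, adjusted p = 0.169), whereas Mkrn3 on the other side fell by 0.53. Around Hoxd1 the antisense transcript Haglr rose by 1.00, and Hoxd3 (0.21) and Hoxd4 (-0.45) passed no threshold. Haglr overlaps the cluster and the use of strand in counting is not given in the sources used here, so its reads may be shared with Hoxd1. Beside Sprr1a, the cornified envelope genes Lce1f and Lce1h were higher at low levels, with 1.29 and 1.2 CPM with dTAG-13, against 0.378 and 0.405 CPM with DMSO for Lce1f (log2 1.65, SE 0.41, adjusted p = 0.000652) and 2.38 and 1.72 CPM with dTAG-13, against 1.09 and 0.376 CPM with DMSO for Lce1h (log2 1.50, SE 0.33, adjusted p = 8.73e-05).

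**Figure D3:**
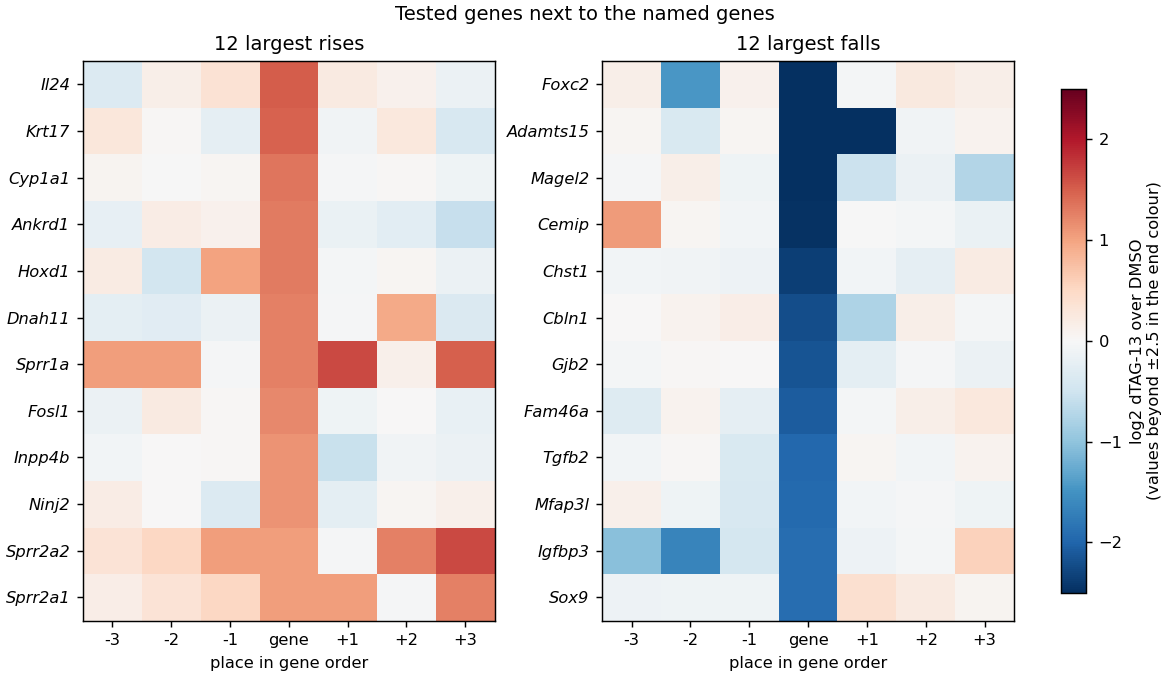
Log2 ratio of dTAG-13 over DMSO (colour) for the 12 largest rises (left) and 12 largest falls (right) in the centre column, with the 3 tested genes on each side in gene order. The deepest colours in the side columns are those of Adamts8 beside Adamts15, Ramp3 near Igfbp3, Foxf1 near Foxc2 and the Sprr and Lce genes, followed by Cfap161 near Cemip (1.06), Snora5c near Igfbp3 (-1.05, past no threshold), Haglr beside Hoxd1 and a RIKEN transcript near Dnah11.

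Genes of the pluripotent state were lower. Of 37 tested members 22 fell and 0 rose (13 and 0 by DESeq2), and the list median was -0.33 beside 0.005 over all genes tested. Sox2, a core regulator of stem cells, had 126 and 67.5 CPM with dTAG-13, against 197 and 125 CPM with DMSO (log2 -0.75, SE 0.059, adjusted p = 1.19e-34). Prdm14, which maintains the naive state, had 3.71 and 1.35 CPM with dTAG-13, against 11.2 and 4.83 CPM with DMSO (log2 -1.65, SE 0.19, adjusted p = 4.8e-16). Klf2 (-0.62), Fgf4 (-0.78), Esrrb (-0.50) and Eras (-0.77) also fell, and Pou5f1, the stem cell regulator OCT4, fell by less, to 341 and 306 CPM with dTAG-13, against 417 and 357 CPM with DMSO (log2 -0.26, SE 0.073, adjusted p = 0.0044). The list median was lower in G9 (-0.37) than in C4 (-0.23), and its DMSO levels differed between clones too. The summed level of the list was 5470 and 4850 CPM with dTAG-13, against 6210 and 5220 CPM with DMSO. In bulk RNA fewer cells of a type and less RNA per cell cannot be told apart.

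Of 15 genes of the primed epiblast, the stage after naive pluripotency, 10 fell and 1 rose (6 and 0 by DESeq2, median -0.34). Fgf5, its usual marker, had 142 and 189.9 CPM with dTAG-13, against 184 and 244 CPM with DMSO (log2 -0.37, SE 0.061, adjusted p = 7.46e-08), and the POU factor Pou3f1 had 68.9 and 70.9 CPM with dTAG-13, against 102 and 98.4 CPM with DMSO (log2 -0.52, SE 0.058, adjusted p = 3.6e-17). T, the primitive streak factor brachyury, fell by 0.40 and Foxd3 by 0.73. Nodal, a ligand that keeps this state, was the member that rose (0.27).

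Developmental regulators held by Polycomb in stem cells fell more often than they rose. Of 80 tested members 32 fell and 8 rose (15 and 3 by DESeq2), with a median of -0.25. Besides Foxc2 and Sox9, the signalling ligand gene Shh had 2.76 and 1.72 CPM with dTAG-13, against 8.27 and 7.12 CPM with DMSO (log2 -1.74, SE 0.19, adjusted p = 4.44e-17), Bmp4 fell to 41.4 and 31.6 CPM with dTAG-13, against 70.5 and 67.9 CPM with DMSO (log2 -0.92, SE 0.063, adjusted p = 1.06e-44), and the heart and placenta regulator Hand1 had 15.1 and 28.6 CPM with dTAG-13, against 27.5 and 55.2 CPM with DMSO (log2 -0.91, SE 0.078, adjusted p = 1.47e-28). The neural regulator Zic2 fell by 0.53. In the Hox list, of 25 tested, 2 rose and 0 fell (1 and 0 by DESeq2), namely Hoxd1 and, by 0.67, Hoxb3. That higher share (8%) was near the 9.83% of all genes. Among 32 genes for Polycomb subunits 5 fell and 1 rose (0 and 0 by DESeq2). Suz12, a core subunit of the histone H3 lysine 27 methyltransferase, fell by 0.25, and Ezh2, its catalytic subunit, passed no threshold (0.10, adjusted p = 0.299).

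Of 35 forkhead genes 14 fell and 4 rose (5 and 0 by DESeq2), and besides Foxc2, Foxf1 and Foxd3 these included Foxo1 (-0.46), with Foxl2 (0.70) the largest rise. Of 34 mesoderm genes 15 fell and 5 rose (9 and 2 by DESeq2). Kdr, the receptor of vascular growth factor on mesoderm and endothelium, had 25.8 and 33.1 CPM with dTAG-13, against 46.3 and 62.2 CPM with DMSO (log2 -0.87, SE 0.068, adjusted p = 6.52e-35). Tcf15, a factor of somites, had 6.29 and 3.37 CPM with dTAG-13, against 16.1 and 9.72 CPM with DMSO (log2 -1.41, SE 0.14, adjusted p = 1.64e-20). Both were lower by a similar ratio in the 2 clones. The mesoderm marker Mixl1 moved the other way, to 153 and 145 CPM with dTAG-13, against 127.9 and 105.5 CPM with DMSO (log2 0.36, adjusted p = 2.03e-08).

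Ligands, inhibitors and adaptors of several signalling pathways fell. In the FGF and ERK list 11 of 26 fell and 3 rose (5 and 0 by DESeq2). Spry4 and Spry1, feedback inhibitors that ERK induces, had 42 and 40.9 CPM with dTAG-13, against 73.5 and 73.3 CPM with DMSO for Spry4 (log2 -0.82, SE 0.062, adjusted p = 1.24e-37) and 40 and 49.8 CPM with dTAG-13, against 69.1 and 83 CPM with DMSO for Spry1 (log2 -0.76, SE 0.061, adjusted p = 2.88e-33). The ERK phosphatase gene Dusp5 (-0.56) and the receptor gene Fgfr2 (-0.46) fell as well. In the insulin-like growth factor list 8 of 17 fell and 3 rose (5 and 0 by DESeq2). Igfbp5, another binding protein, had 23 and 14.7 CPM with dTAG-13, against 66.1 and 71.8 CPM with DMSO (log2 -1.83, SE 0.07, adjusted p = 3.11e-143). Irs1, an adaptor of the insulin receptor, had 9.16 and 9.95 CPM with dTAG-13, against 28.5 and 28.1 CPM with DMSO (log2 -1.58, SE 0.10, adjusted p = 2.86e-50), and the adaptor genes Irs2 and Irs4 fell by 0.73 and 1.12. Irs4 fell by more in G9 (-2.07) than in C4 (-0.61).

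In the BMP list 10 of 26 fell and 3 rose (3 and 2 by DESeq2), with Bmp2 at 19 and 17.6 CPM with dTAG-13, against 44.1 and 46.9 CPM with DMSO (log2 -1.30, SE 0.079, adjusted p = 1.9e-58) and Bmp7 higher by 0.48. In the TGF-beta and Nodal list 7 of 24 fell and 5 rose (3 and 2 by DESeq2). Fst, which encodes the activin trap follistatin, had 14.8 and 10.1 CPM with dTAG-13, against 43 and 30.5 CPM with DMSO (log2 -1.56, SE 0.091, adjusted p = 7.57e-63). In the Wnt list 16 of 44 fell and 9 rose (7 and 2 by DESeq2), including Wnt5a (-0.96) among the falls and Axin2 (0.54), a target and inhibitor of the pathway, among the rises. In the Notch list 5 of 19 fell and 3 rose (2 and 0 by DESeq2), with the ligand genes Dll1 (-1.20) and Jag1 (-0.76) lower. In the hedgehog list 7 of 15 fell and 3 rose (3 and 1 by DESeq2), with the receptor gene Ptch1 lower (-0.41).

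In the ADAMTS family of matrix proteases, of 19 tested members 8 fell and 2 rose (3 and 1 by DESeq2), with a median of -0.37. Adamts9 had 22.2 and 14.5 CPM with dTAG-13, against 55.4 and 46.1 CPM with DMSO (log2 -1.46, SE 0.076, adjusted p = 7.27e-77), and Adamts1 moved the other way, to 48 and 40.1 CPM with dTAG-13, against 25.8 and 20.9 CPM with DMSO (log2 0.92, SE 0.075, adjusted p = 5.54e-32). Of 40 clustered protocadherins, cell-surface proteins of neurons whose promoters cohesin and CTCF join to enhancers, 17 fell and 0 rose, but only 1 fell by DESeq2. Pcdhb22 had 1.59 and 2.02 CPM with dTAG-13, against 5.83 and 6.51 CPM with DMSO (log2 -1.79, SE 0.22, adjusted p = 2.19e-14). Pcdhb20 and Pcdhb17 were near the range of a few counts per library, at 0.379 and 0.449 CPM with dTAG-13, against 1.22 and 1.74 CPM with DMSO for Pcdhb20 (log2 -1.79, SE 0.41, adjusted p = 0.00018), and Pcdhb17 had 0.606 and 0.224 CPM with dTAG-13, against 1.22 and 1.62 CPM with DMSO (log2 -1.58, SE 0.40, adjusted p = 0.000826). The alpha members share their last exons, so their near-equal log2 values, such as -0.70 in Pcdha12 and -0.68 in Pcdha11, may rest on the same reads. The 17 falls may therefore count the same reads more than once and are not 17 separate results. The list median was -0.10, and whether other members share reads was not examined.

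Smooth muscle contractile genes were mostly higher. Of 15 tested members 11 rose and 1 fell (7 and 0 by DESeq2), with a median of 0.39. The log2 changes of the members ran from -1.26 to 0.77. Cnn1, the actin-binding protein calponin, had 139 and 167 CPM with dTAG-13, against 92.7 and 107.8 CPM with DMSO (log2 0.61, SE 0.057, adjusted p = 3.18e-24). Smtn, smoothelin, had 209 and 206 CPM with dTAG-13, against 133 and 136 CPM with DMSO (log2 0.63, SE 0.06, adjusted p = 3.85e-23), and Acta2, smooth muscle actin, had 501 and 519 CPM with dTAG-13, against 367 and 361 CPM with DMSO (log2 0.49, SE 0.077, adjusted p = 1.28e-08). In all 3 both treated libraries lay above both controls. The summed level of the list was 3630 and 3970 CPM with dTAG-13, against 3050 and 3020 CPM with DMSO. Of 17 cardiac muscle genes 6 rose and 1 fell (1 and 1 by DESeq2), with Nppb, a natriuretic peptide gene, at 5.04 and 5.83 CPM with dTAG-13, against 2.39 and 2.05 CPM with DMSO (log2 1.28, SE 0.21, adjusted p = 5.6e-08). The fall was in Ryr2, at 3.22 and 1.65 CPM with dTAG-13, against 5.87 and 5.38 CPM with DMSO (log2 -1.16, SE 0.20, adjusted p = 4.27e-07). The cardiac markers Tnnt2 (0.53) and Myh6 (-0.032) passed no threshold.

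Targets of YAP and TEAD, which respond to cell shape and contact, rose in 14 and fell in 5 of 28 cases (5 and 3 by DESeq2). Besides Ankrd1, the matricellular gene Cyr61 had 404 and 427 CPM with dTAG-13, against 321 and 270.2 CPM with DMSO (log2 0.49, SE 0.073, adjusted p = 6.87e-10), and the kinase gene Lats2 rose by 0.54, while Tgfb2, Igfbp3 and the coagulation initiator F3 (-1.08) fell. Of 29 immediate early genes, which are induced within minutes by growth signals, 12 rose and 6 fell (5 and 3 by DESeq2). The list median was -0.046 in C4 and 0.207 in G9, so the clones did not shift the same way. Egr3 had 25 and 36.6 CPM with dTAG-13, against 18.9 and 23.7 CPM with DMSO (log2 0.52, SE 0.084, adjusted p = 2.75e-08). Myc, a growth regulator, had 141 and 139 CPM with dTAG-13, against 123 and 125 CPM with DMSO (log2 0.18, SE 0.058, adjusted p = 0.0168), whereas Ier5l had 22.5 and 24.1 CPM with dTAG-13, against 37.4 and 53.5 CPM with DMSO (log2 -0.93, SE 0.075, adjusted p = 7.68e-33). In the AP-1 list 5 of 14 rose and 2 fell (4 and 0 by DESeq2), and the members that rose besides Fosl1 were Atf3, Maff, Jdp2 and Mafk. Its median was 0.01 in C4 and 0.232 in G9. Atf3, a stress-induced repressor, had 60 and 66 CPM with dTAG-13, against 32.8 and 31.4 CPM with DMSO (log2 0.97, SE 0.064, adjusted p = 2.6e-48), and Maff, a small bZIP protein, had 44.8 and 56.9 CPM with dTAG-13, against 26.4 and 29.5 CPM with DMSO (log2 0.86, SE 0.07, adjusted p = 3.3e-32). Fosb was lower (-0.40).

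Of 14 keratins, structural proteins of epithelia, 6 rose and 0 fell (2 and 0 by DESeq2), with Krt18, a keratin of simple epithelia, at 868 and 1324 CPM with dTAG-13, against 743 and 944 CPM with DMSO (log2 0.36, SE 0.10, adjusted p = 0.0037). Of 32 other epithelial genes 12 rose and 4 fell (3 and 2 by DESeq2): the hemidesmosome genes Itgb4 and Lama3 rose by 0.71 and 0.71 and the tight junction gene Cldn4 by 0.56, while Gjb2 and the desmosome gene Dsg2 (-0.34) fell. The median of this epithelial list was -0.011 in C4 and 0.165 in G9. Of 25 cytokine genes and their regulators 8 rose and 3 fell (2 and 0 by DESeq2). Besides Il24, the chemokine genes Cxcl16 (0.53) and Ccl20 (0.62) rose. Of 31 interferon response genes 7 fell and 2 rose (0 and 0 by DESeq2).

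Genes of mitosis and of DNA replication moved in opposite directions by small amounts. Of 32 mitotic genes 18 rose and 0 fell (4 and 0 by DESeq2), with a median of 0.2. Kif23, a kinesin of the dividing midbody, had 261 and 266 CPM with dTAG-13, against 187 and 186 CPM with DMSO (log2 0.50, SE 0.064, adjusted p = 5.52e-13), and Cenpe, a kinesin of the kinetochore, had 261 and 272 CPM with dTAG-13, against 189.9 and 203 CPM with DMSO (log2 0.44, SE 0.064, adjusted p = 3.69e-10). Of 37 replication genes 10 fell and 0 rose (1 and 0 by DESeq2), with a median of -0.1. Ccne1, cyclin E1 of the entry into S phase, had 122 and 103 CPM with dTAG-13, against 154 and 132 CPM with DMSO (log2 -0.34, SE 0.058, adjusted p = 1.03e-07). The shares of cells in each phase were not measured here. Of 30 p53 targets 10 rose and 1 fell (0 and 0 by DESeq2), with Mdm2, the ubiquitin ligase of p53, at 249.8 and 298 CPM with dTAG-13, against 221 and 219 CPM with DMSO (log2 0.31, SE 0.065, adjusted p = 4.26e-05). Of 23 cholesterol synthesis genes 11 rose and 0 fell (1 and 0 by DESeq2), led by Fdps (0.31, SE 0.06) and Cyp51 (0.31, SE 0.063). With library totals in place of TMM the median of all tested genes moved from 0.0051 to -0.0419, that of the mitotic genes was 0.15, that of the cholesterol genes 0.15 and that of the p53 targets 0.098.

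**Figure D4:**
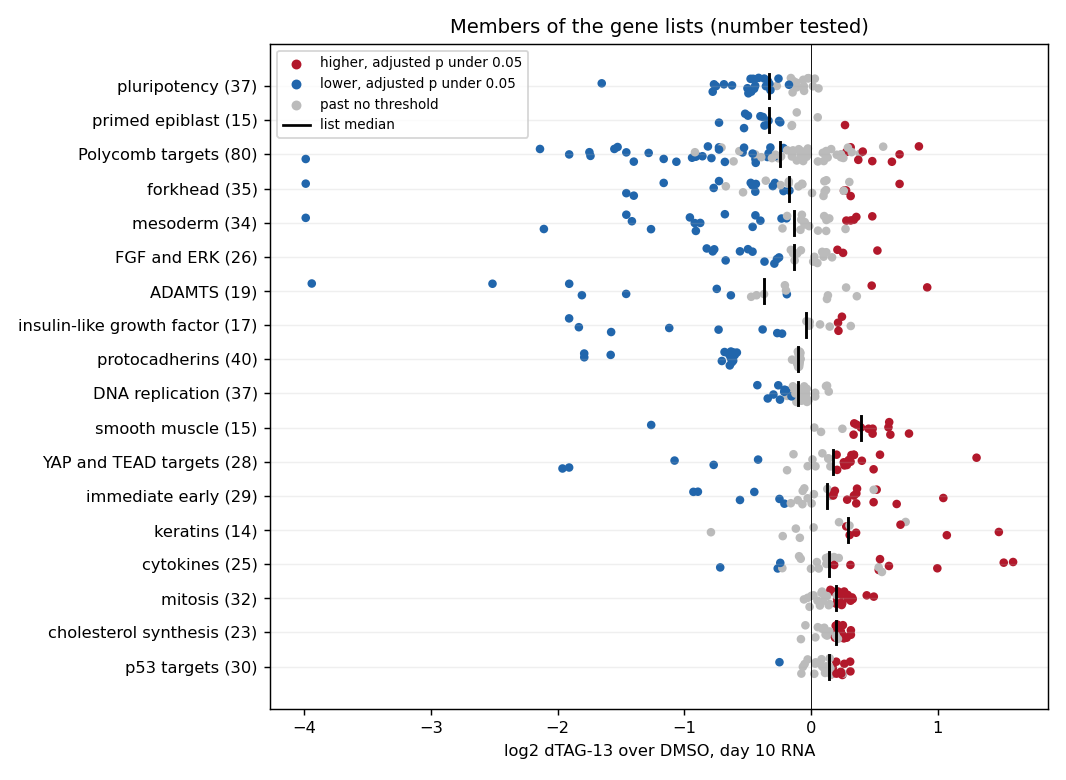
Log2 ratio of dTAG-13 over DMSO for each tested member of 18 gene lists, 1 point per gene with the number tested in brackets, red for higher, blue for lower and grey for past no threshold, and a black bar at the list median. The lists from pluripotency down to DNA replication lie to the left of 0 at their median and those from smooth muscle down to p53 targets to the right. For immediate early genes the median of clone G9 alone was above 0, and that of C4 was below it.

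Counts for lists of other stress and differentiation programmes stand beside 9.83% higher and 8.89% lower over all genes in edgeR. Some were near these shares, such as the rises among retinoic acid genes (8.33%) and hypoxia genes (7.14%). Of 7 targets and partners of the aryl hydrocarbon receptor 2 rose and 2 fell (1 and 1 by DESeq2): Cyp1b1, a monooxygenase gene, rose with Cyp1a1, at 16.2 and 14.5 CPM with dTAG-13, against 11.1 and 8.94 CPM with DMSO (log2 0.62, SE 0.12, adjusted p = 2.45e-06), while Tiparp, a feedback inhibitor of the receptor, had 49.9 and 40.5 CPM with dTAG-13, against 68.9 and 63.8 CPM with DMSO (log2 -0.55, SE 0.062, adjusted p = 4.45e-17) and the receptor gene Ahr fell by 0.48. Of 28 hypoxia genes 7 fell and 2 rose (3 and 1 by DESeq2), with Vegfa, the vascular growth factor, at 30.9 and 33.7 CPM with dTAG-13, against 45.4 and 64.5 CPM with DMSO (log2 -0.74, SE 0.067, adjusted p = 4.33e-26) and Ndrg1 at 67.9 and 75 CPM with dTAG-13, against 41.5 and 37.7 CPM with DMSO (log2 0.85, SE 0.061, adjusted p = 1.47e-40). Of 25 heat shock genes 5 rose and 1 fell (2 and 0 by DESeq2), the largest change being in the small heat shock protein gene Hspb8 (0.72, SE 0.059). In the integrated stress response list 5 of 28 fell and 1 rose (1 and 0 by DESeq2), and among hosts of small nucleolar RNAs 5 of 16 fell and 0 rose (0 and 0 by DESeq2). Of 24 retinoic acid genes 7 fell and 2 rose (1 and 2 by DESeq2), and of 19 genes of the epithelial to mesenchymal transition 5 fell and 4 rose (2 and 3 by DESeq2).

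Of the lists for other lineages, 8 of 32 endoderm genes fell and 4 rose (3 and 0 by DESeq2). Cxcr4, a chemokine receptor gene of definitive endoderm, had 13.5 and 23.5 CPM with dTAG-13, against 32 and 58.5 CPM with DMSO (log2 -1.28, SE 0.079, adjusted p = 1.98e-55). Of 19 endothelial genes 6 fell and 1 rose (2 and 0 by DESeq2), and the list sum was 358 and 395 CPM with dTAG-13, against 366 and 461 CPM with DMSO. The list median was 0.004 in C4 and -0.27 in G9. The endothelial junction gene Cldn5 had 0.492 and 0.523 CPM with dTAG-13, against 1.09 and 1.39 CPM with DMSO (log2 -1.25, SE 0.40, adjusted p = 0.0132). It rests on few counts, 13 and 7 with dTAG-13, against 26 and 48 with DMSO. The rise was in Flt1 (0.18), and the markers Pecam1 (-0.022) and Cdh5 (0.20) passed no threshold. Of 22 neural genes 5 fell and 3 rose (2 and 0 by DESeq2), and Pax6 and Tubb3 passed no threshold. Of 20 trophoblast genes 5 fell and 5 rose (3 and 1 by DESeq2). Of 23 germline genes 2 fell and 0 rose (1 and 0 by DESeq2), a lower share (8.7%) near the 8.89% of all genes. Of 5 genes of the 2-cell-like state 0 fell and 0 rose (0 and 0 by DESeq2).

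Imprinted genes, of which 1 parental copy is active, went both ways. Of 56 tested members 14 fell and 11 rose (5 and 3 by DESeq2). Peg3, a paternally expressed zinc finger gene, had 508 and 416 CPM with dTAG-13, against 902 and 846 CPM with DMSO (log2 -0.93, SE 0.089, adjusted p = 5.11e-23), and Plagl1 had 23.8 and 11.8 CPM with dTAG-13, against 41.1 and 19 CPM with DMSO (log2 -0.75, SE 0.089, adjusted p = 4.73e-15). Phlda2, a maternally expressed growth inhibitor, had 30.5 and 31.6 CPM with dTAG-13, against 16.6 and 16.6 CPM with DMSO (log2 0.90, SE 0.088, adjusted p = 3.6e-22). Kcnq1ot1, a long antisense RNA of the same cluster, had 78.6 and 148 CPM with dTAG-13, against 62.3 and 78.1 CPM with DMSO (log2 0.64, SE 0.058, adjusted p = 2.78e-26), with a larger rise in G9 (0.92) than in C4 (0.34), and without stated strand its reads cannot be separated from Kcnq1. The counts are not split by allele.

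On the X chromosome 80 of 528 tested genes were lower (15.2%) and 27 higher (5.11%), against 8.67% lower and 9.98% higher among 13891 autosomal genes. The median log2 of the X-linked genes was -0.06 in C4 and -0.07 in G9, and that of autosomal genes was -0.001 and 0.01. Xist, the RNA that coats the inactive X, had 462 and 357 CPM with dTAG-13, against 596 and 335 CPM with DMSO (adjusted p = 0.216), with log2 ratios of -0.37 in C4 and 0.089 in G9, so the clones did not move the same way. Tsix, its antisense partner, had 16.9 and 17.4 CPM with dTAG-13, against 17.4 and 13.8 CPM with DMSO (adjusted p = 0.431). Strand is not given, so reads of the 2 genes may be shared. The long noncoding RNA Ftx, which lies in the same centre, fell to 15.3 and 11.2 CPM with dTAG-13, against 19.9 and 17.6 CPM with DMSO (log2 -0.49, SE 0.10, adjusted p = 4.84e-05). No difference between the X and the autosomes was tested.

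The embryoid bodies expressed markers of several cell types. Pou5f1, Nanog, Sox2, Fgf5, T and Mixl1 stood above 50 CPM in all 4 libraries, and Acta2 and Col1a1, a collagen gene of fibroblasts, above 100 CPM. Markers of some other cells were near the floor or not tested: Hbb-bh1, an embryonic globin gene, had 0.303 and 0.224 CPM with dTAG-13, against 0.587 and 0.868 CPM with DMSO, and Afp, Ptprc and Elf5 had too few counts to be tested. Among 24 markers of fibroblasts and feeders there were 4 rises and 3 falls (1 and 1 by DESeq2), and their summed level was 3990 and 3840 CPM with dTAG-13, against 4110 and 3870 CPM with DMSO. Of 18 blood genes 7 fell and 2 rose (2 and 0 by DESeq2), with sums of 137 and 112 CPM with dTAG-13, against 161 and 162 CPM with DMSO. The part of shifts in cell makeup in the results above was not tested.

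The same 2 clones were also treated for 8 h at day 7 and read by PRO-seq, which maps engaged RNA polymerase, in 2 libraries with dTAG-13 and 2 with DMSO. Assay and day cannot be told apart in this comparison. In PRO-seq alone, among 13324 genes tested in both assays, 798 were higher (5.99%) and 736 lower (5.52%). Of the 1184 genes lower in RNA among these, 312 were also lower in PRO-seq, which is 26.4% of the RNA set and 42.4% of the PRO-seq set. Of 1300 genes higher in RNA, 304 were also higher in PRO-seq (23.4% and 38.1%). Calls in opposite directions were made for 40 genes higher in RNA and 19 lower in RNA. A direct test of the difference in response passed for 295 of 13837 genes (2.13%), of which 149 had the higher log2 ratio in RNA and 146 the lower. DESeq2 passed 82 and 60, and leaving out 1 of the 8 libraries gave between 49 and 1001 genes in all, so the count depends on single libraries: it was 49 without the G9 RNA library of either treatment and 906 or 1001 without the C4 PRO-seq library with DMSO or with dTAG-13.

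Magel2 was lower in PRO-seq too, at 8.7 and 8.65 CPM with dTAG-13, against 28.1 and 26.8 CPM with DMSO (log2 -1.66, SE 0.15, adjusted p = 6.61e-10), by less than in RNA (difference RNA minus PRO-seq -1.74, SE 0.16, adjusted p = 0.000116). Adamts15 (-2.78), Adamts9 (-1.62) and Igfbp3 (-1.41) fell in PRO-seq, and their differences passed no threshold. Tgfb2 had a PRO-seq log2 of -0.28 and Sox9 of -0.33, and both differed from RNA (difference -1.70, SE 0.16, adjusted p = 0.000116 for Tgfb2 and -1.59, SE 0.23, adjusted p = 0.00259 for Sox9). T fell far more in PRO-seq, at 5.26 and 42.5 CPM with dTAG-13, against 19.2 and 145 CPM with DMSO (log2 -1.81, SE 0.11, adjusted p = 1.99e-13), than in day 10 RNA (difference 1.39, SE 0.10, adjusted p = 2.05e-05). Fgf5 likewise had 82.5 and 149.7 CPM with dTAG-13, against 181 and 321 CPM with DMSO in PRO-seq (log2 -1.12, SE 0.068, adjusted p = 3.44e-13; difference 0.74, SE 0.085, adjusted p = 0.000501).

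The cholesterol, smooth muscle and immediate early lists, taken up after their values were seen, each had a share past the difference test above the 2.13% of all genes. That was not particular to them, as it also held for other lists, such as primed epiblast (5 of 15), YAP and TEAD targets (5 of 25) and Polycomb targets (9 of 75). The 22 cholesterol genes tested in both assays had a median log2 of -0.25 in PRO-seq, where 8 of 22 fell and 0 rose, and the difference passed for 7 of the 22. For smooth muscle genes 8 of 15 passed, and the PRO-seq median was -0.05 beside 0.39 in RNA. Cnn1, for example, stood in PRO-seq at 51.2 and 80.8 CPM with dTAG-13, against 59.8 and 107.9 CPM with DMSO (log2 -0.32, SE 0.087, adjusted p = 0.014; difference 0.92, SE 0.098, adjusted p = 0.000392). For immediate early genes 10 of 28 passed, with a PRO-seq median of -0.21. Egr3 rose in RNA and fell in PRO-seq (log2 -0.55, SE 0.10, adjusted p = 0.000342; difference 1.05, SE 0.14, adjusted p = 0.00108). Among pluripotency genes, 15 of 36 fell in PRO-seq and 0 rose, and the difference passed for 4. No test compared one list with another.

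**Figure D5:**
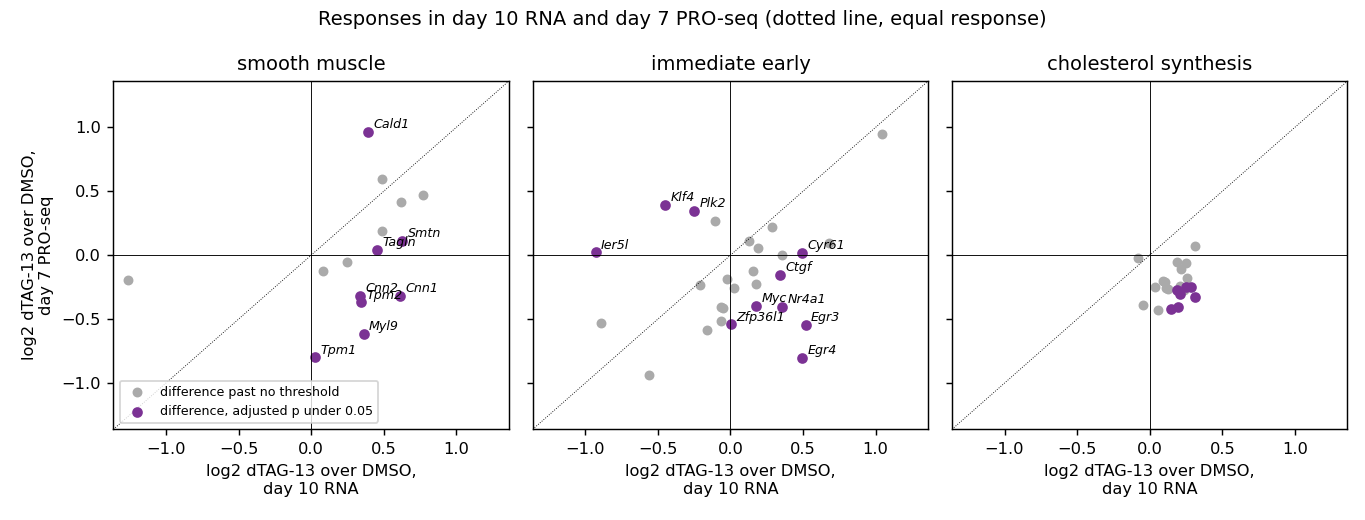
Log2 ratio of dTAG-13 over DMSO in day 10 RNA (horizontal) and day 7 PRO-seq (vertical) for the smooth muscle, immediate early and cholesterol synthesis genes, 1 point per gene; the dotted line marks equal response and purple points are those with a difference at adjusted p under 0.05, labelled in the first 2 panels because they passed. Most purple points lie below the line, at a higher ratio in RNA than in PRO-seq, with Cald1, Ier5l, Klf4 and Plk2 above it.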

How the data were processed

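Gene-level counts of poly(A) RNA, deposited by the authors as whole numbers with no normalization per the file headers, were used for the RAD21 libraries at day 10 and, to borrow their spread, for 4 WAPL libraries. The PRO-seq table deposited by the authors holds expected counts in steps of 0.5, which were rounded. TopHat2, Novoalign, Bowtie2, HOMER, DESeq, DESeq2, deepTools, bedtools, cutadapt, Juicer and the builds mm9, hg19 and dm6 are named in the submitters' processing notes, with no role here. The aligner for each table, the counting rule and its use of strand were not given in the sources used here. RNA totals ranged from 13802076 to 33808921 counts.

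Genes passing filterByExpr (minimum count 10) were scaled by TMM and fitted with edgeR 4.0.16 (R 4.3.3) by quasi-likelihood with terms for clone and treatment, and called at a Benjamini-Hochberg adjusted p under 0.05. CPM are TMM-scaled. The SE is the absolute log2 fold change divided by the square root of F. The log2 ratios of single clones come from CPM of that clone with a small count added before the log, which shrinks the ratios of low counts. The clones pair the libraries because each is 1 cell line, and deviations of same-clone libraries from their group means correlated at 0.68. The difference between RNA and PRO-seq was an interaction term in 1 fit over 8 libraries. Gene order and promoters are from RefSeq (GRCm38.p6), matched by symbol, and no coordinates were converted. Alternatives used DESeq2 1.42.0, limma 3.58.1, other scalings, filters and designs. Scripts were tested on simulated data. Named genes are the 12 largest rises and 12 largest falls described in the text, up to 6 members of each of 55 lists by smallest p, cohesin and X-inactivation genes, cell type markers and gene-order neighbours. The members, lists and tests were chosen with earlier results of these data known. Dnah11, Sprr2a1 and Sprr2a2 are missing from the fits that borrow the WAPL spread.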

Additional observations from a re-analysis of the deposited data

Results flagged for a closer look

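Of the genes named in the text, leaving out Ryr2, Tnnt2, Myh6, Pecam1, Cdh5 and Flt1, 132 were tested in both assays. For 39 of the 132 the response to dTAG-13 differed between day 10 RNA and day 7 PRO-seq by a test of the difference itself at an adjusted p under 0.05 (edgeR). The difference is the log2 ratio in RNA minus that in PRO-seq. Most of these genes were named for their change in RNA, so their share is not set against that of all genes. The ratio was lower in RNA for 22 genes. The deepest were Shh (-2.67), Gjb2 (-2.54), Igfbp5 (-2.18), Magel2 (-1.74), Tgfb2 (-1.70), Chst1 (-1.70) and Sox9 (-1.59), and after these came Ramp3 (-1.24), Mfap3l (-1.13), Bmp2 (-1.12), Plagl1 (-1.05), Dll1 (-1.03), Jag1 (-0.99) and Ier5l (-0.97). Smaller differences were those of Irs1 (-0.86), Klf4 (-0.82), Eras (-0.80), F3 (-0.68), Fgfr2 (-0.65), Plk2 (-0.61), Cald1 (-0.58) and Vegfa (-0.57). The ratio was higher in RNA for 17 genes. The widest were Hoxd1 (2.20), T (1.39), Ndrg1 (1.31), Egr3 (1.05), Mixl1 (1.00), Cnn1 (0.92) and Dnah11 (0.91). The others were Atf3 (0.80), Fgf5 (0.74), Zic2 (0.73), Axin2 (0.68), Fdps (0.62), Maff (0.60), Myc (0.56), Smtn (0.50), Pou5f1 (0.49) and Cyr61 (0.46). Hoxd1 stood in PRO-seq at 1.85 and 1.24 CPM with dTAG-13, against 2.69 and 3.55 CPM with DMSO (log2 -0.94, SE 0.35, adjusted p = 0.0847), against its rise in RNA, and its PRO-seq counts may be shared with overlapping transcripts. Shh was at a low level in PRO-seq, with 0.991 and 1.24 CPM with dTAG-13, against 0.429 and 0.852 CPM with DMSO. Its change there passed no threshold (log2 0.89, SE 0.51, adjusted p = 0.30), so its place as the deepest difference is uncertain. Gjb2 had 1.68 and 2.06 CPM with dTAG-13, against 0.715 and 2.84 CPM with DMSO in PRO-seq, where the clones did not move the same way. Foxc2 had too few PRO-seq counts for a test in that assay, so no difference is given for it. The assay, the day and the share of each cell type at that day cannot be told apart.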

How the results depend on the processing

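Library totals left 710 genes higher and 1303 lower. DESeq2 called 219 higher and 253 lower in RNA, and 82 and 60 in the difference from PRO-seq. Without the replicate block, that is without the clone term, the RNA fit called 0 higher and 1 lower (838 at an unadjusted p under 0.05 in edgeR) and the difference fit 0 and 0 (254 unadjusted). Sharing the spread with the WAPL libraries unpaired gave 0 higher and 5 lower. Leaving out 1 RNA library, with that unpaired spread, gave 0 calls higher and 0 lower in edgeR (between 155 and 288 at an unadjusted p under 0.05, and between 2645 and 2646 of the called genes were tested). Pairing the WAPL libraries by number, a choice made after seeing the data, gave 1139 higher and 1090 lower, and leaving out a clone then gave between 645 and 846 higher and between 591 and 797 lower. For the difference, leaving out 1 library in turn gave between 26 and 541 genes with a higher ratio in RNA and between 22 and 460 with a lower one. The RNA counts were within 1.5 times under RLE scaling, no filter, a mean count of at least 50, limma-voom and the legacy fit. All 12 largest falls were called under those settings and DESeq2, and all 12 largest rises under those settings, with 10 under DESeq2. These genes were picked by their change in the same libraries, so their calls are not independent support. The cause of the losses was not tested. With 2 clones and 1 residual degree of freedom, the adjusted p-values rest on a spread shared by all genes. Genes under a few CPM, such as Pcdhb20 and Pcdhb17, rest on few counts in the shallow G9 dTAG-13 library.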
